A study of Mus musculus with 51 samples.

Results

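The tissue difference in parental H3K27me3 bias was measured in 7858 autosomal regions, each a group of joined H3K27me3 peaks in which at least 1 peak of the extra-embryonic ectoderm (ExE) and at least 1 peak of the epiblast overlapped by 1 bp or more. These shared regions took up 7895 of the 22515 autosomal ExE peaks (35.1%) and 10889 of the 11810 epiblast peaks (92.2%). Regions were kept as informative if, in ExE and also in epiblast, the maternal or the paternal count of 1 or more wild-type libraries reached 20 reads, which left 6298 regions (80.1%). For each of them the log2 ratio of paternal to maternal reads in ExE was set against that in epiblast.

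Embryos were collected at embryonic day 6.5 from reciprocal crosses of C57BL6/Babr (B6) and CAST/Ei (CAST) mice, written with the mother first, so that B6/CAST has a B6 mother and CAST/B6 a CAST mother. Epiblast and ExE were separated by hand and pooled, 4 epiblasts or 8 ExE to a pool of roughly 2500 cells by the protocol, and histone marks were profiled by ultra low-input ChIP-seq. The comparison used 8 wild-type H3K27me3 libraries, 2 for each cross and tissue, and 4 libraries of matDKO/CAST, 2 for each tissue, were read beside them. The matDKO/CAST embryos came from CAST fathers and from B6/129 females in which Zp3-cre, active in the growing oocyte, had deleted floxed Dnmt3a and Dnmt3b, the de novo DNA methyltransferases, so they inherit no maternal DNA methylation and a deleted maternal copy of both genes. The sources do not say that replicates came from separate litters, so p-values measure the spread between these libraries. A paternal share averages over all cells of a pool, so fewer cells with a bias and a smaller bias in every cell cannot be told apart.

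H3K27me3 is laid down by Polycomb repressive complex 2 and marks silent promoters and, in some imprinted clusters, long stretches of the silent chromosome copy. Imprinted genes are expressed from the copy of 1 parent. In placental lineages the long non-coding RNAs Airn and Kcnq1ot1, both transcribed from the paternal copy, silence genes far from their own start sites, and Polycomb complexes take part in that silencing. Germline imprints of both RNAs are DNA methylation marks set in the oocyte.

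The start sites of 4 genes that carry the comparison lay inside shared regions, and the 300 bases around each (250 before and 50 after the start, RefSeq, GRCm38.p6) are shown 5′ to 3′ with every CG dinucleotide, the site of DNA methylation, in capitals. Grb10 (chr11:12037371-12037670, minus strand) encodes a growth-restraining signalling adaptor, Zdbf2 (chr1:63273019-63273318, plus strand) a zinc-finger protein expressed from the paternal copy, Sfmbt2 (chr2:10370201-10370500, plus strand) a Polycomb-group protein, and Slc22a3 (chr17:12507655-12507954, minus strand) an organic cation transporter of the Airn cluster.
Grb10: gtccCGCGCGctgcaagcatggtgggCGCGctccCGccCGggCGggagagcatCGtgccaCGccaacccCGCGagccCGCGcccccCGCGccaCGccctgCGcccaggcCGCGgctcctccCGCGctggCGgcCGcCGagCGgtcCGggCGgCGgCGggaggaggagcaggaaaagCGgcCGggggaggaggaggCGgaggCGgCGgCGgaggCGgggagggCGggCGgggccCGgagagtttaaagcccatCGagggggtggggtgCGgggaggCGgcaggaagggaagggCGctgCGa
Zdbf2: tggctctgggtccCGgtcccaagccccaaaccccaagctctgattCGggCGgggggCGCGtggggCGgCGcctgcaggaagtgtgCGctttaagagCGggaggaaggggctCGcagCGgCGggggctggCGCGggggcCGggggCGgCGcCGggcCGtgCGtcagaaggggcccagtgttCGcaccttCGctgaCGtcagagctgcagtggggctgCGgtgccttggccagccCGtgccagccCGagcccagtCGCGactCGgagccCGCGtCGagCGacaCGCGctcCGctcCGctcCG
Sfmbt2: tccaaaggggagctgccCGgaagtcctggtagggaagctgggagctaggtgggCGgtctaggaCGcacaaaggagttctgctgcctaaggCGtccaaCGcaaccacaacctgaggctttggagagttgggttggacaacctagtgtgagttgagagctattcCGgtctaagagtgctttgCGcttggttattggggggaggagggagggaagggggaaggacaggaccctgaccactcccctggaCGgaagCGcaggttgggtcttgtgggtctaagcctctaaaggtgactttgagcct
Slc22a3: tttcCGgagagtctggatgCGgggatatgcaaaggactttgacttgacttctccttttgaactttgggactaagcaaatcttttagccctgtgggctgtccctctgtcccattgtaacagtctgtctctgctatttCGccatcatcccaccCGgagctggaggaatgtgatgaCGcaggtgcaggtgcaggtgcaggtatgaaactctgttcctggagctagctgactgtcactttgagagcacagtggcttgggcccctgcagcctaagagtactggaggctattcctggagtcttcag

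The windows of Grb10 and Zdbf2 held 45 and 38 CG dinucleotides, counts reached by 2.00% and 5.12% of 31396 autosomal promoter windows. Sfmbt2 held 9 (reached by 46.2%) and Slc22a3 held 5 (62.4%). The 4 regions therefore span CG-rich and CG-poor start sites, and no further sequence feature was examined.

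Depth differed between the tissues. Allele-assigned reads in shared regions numbered 2.35 to 4.75 M per wild-type ExE library and 0.875 to 1.93 M per wild-type epiblast library, and the paternal share over all of them was 49.5 to 50.7% and 47.4 to 50.3%. Median reads per informative region over the 4 wild-type libraries were 1123 in ExE and 379 in epiblast, and 90.9% of regions had more reads in ExE. The peaks were also longer in ExE, with a median covered length of 29.0 kb against 11.5 kb, and in 2910 of the 6298 regions the shared length was at least 50% of the covered length in both tissues. H3K4me3 at start sites of epiblast markers summed to 37.4 to 68.9 RPKM in ExE and 151.7 to 199.2 RPKM in epiblast, and 4 of 5 markers, Pou5f1 among them, were higher in every epiblast library. The 6 ExE markers summed to 100.1 to 127.4 against 65.6 to 91.6 RPKM, and 3 of them (Cdx2, Tfap2c and Bmp4) were higher in every ExE library, 1 (Esrrb) was higher in every epiblast library, and Elf5 was near 0 in both (at most 0.918 RPKM). Visceral endoderm markers summed to 54.1 to 88.4 RPKM in ExE and 37.2 to 60.4 RPKM in epiblast, with 3 of 6 (Ttr, Cubn and Apoa1) higher in every ExE library and 1 (Sox17) higher in every epiblast library. Maternal decidua markers summed to 8.32 to 16.5 and 13.4 to 21.0 RPKM, with 2 of 5 (Dcn and Pgr) higher in every epiblast library and Prl8a2 at most 0.188 RPKM in any library. The part of these cell types in the differences was not tested.

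**Figure D1:**
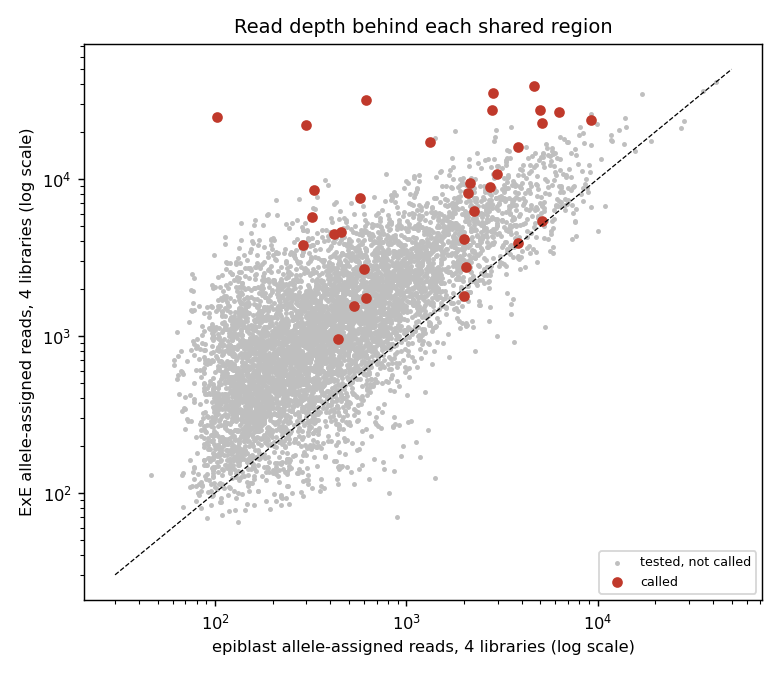
Allele-assigned H3K27me3 reads of each informative shared region, summed over the 4 wild-type epiblast libraries (x axis, log scale) and the 4 wild-type ExE libraries (y axis, log scale); the dashed line marks equal depth. Most regions lie above the line (90.9%), and called regions are drawn in red.

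The parental bias differed between the tissues in 32 of 6298 regions (0.508% of those tested; edgeR quasi-likelihood test of tissue by parent over both crosses, adjusted p below 0.05). The ExE was the more paternal tissue in 29 of them (0.460%) and the less paternal in 3 (0.0476%): Grb10, Fkbp6 with Trim50, and Sfmbt2. In 31 of the 32 (0.492%) the sign was the same in both crosses. The exception was the olfactory receptor region of Olfr539, Olfr45 and Olfr541, with differences of -0.67 in B6/CAST and 2.32 in CAST/B6, and it is left out below. In 17 regions (0.270%) the difference passed in each cross alone, 16 of them paternal (0.254%) and 1 maternal (0.0159%; Grb10), and single crosses gave 38 (B6/CAST, 0.603%) and 76 (CAST/B6, 1.21%). At an unadjusted p below 0.05 there were 325 (5.16%). With each library as a block 47 passed, all 32 among them, with 38 more and 9 less paternal in ExE. Over all informative regions the median difference was -0.002 and the median absolute difference 0.13 (log2). The paternal shares of the 4 ExE libraries did not overlap those of the 4 epiblast libraries in 29 of the 31, against 2.16% of all informative regions, and these shares are the values the test itself used. Without B6/CAST Epi replicate 2 the test called 58 regions, 31 of the 32 among them, and without any 1 of the other 7 libraries 23 to 31. The difference of the strain bias between the tissues, by comparison, passed in 98 regions (1.56%).

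By direction of bias, the 31 regions fell into 6 classes. In 14 the paternal copy carried more H3K27me3 in both tissues, and more so in ExE. In 11 the paternal excess passed the test in ExE and did not in epiblast. In 3 (Zdbf2, 4930524O08Rik, and a region beside Gnas) the maternal copy was higher in both tissues and more so in epiblast. The other 3, with 1 region each, were Grb10 (paternal in both, more so in epiblast), Sfmbt2 (maternal in both, more so in ExE) and Fkbp6 (paternal in epiblast, not called in ExE). Within a tissue, the bias passed in 315 regions in ExE (5.00%; 222 paternal, 3.52%, and 93 maternal, 1.48%) and in 68 in epiblast (1.08%; 48 paternal, 0.762%, and 20 maternal, 0.318%). With library totals in place of TMM factors the splits were 170 to 157 and 39 to 30, and with each library as a block the counts were 870 and 172, so these counts and their split depended on the fit. Regions called in both tissues numbered 51, which is 16.2% of the ExE and 75% of the epiblast calls, and all 51 had the same parent higher. A region biased in ExE and not in epiblast was not thereby different: of the 315 ExE calls 284 did not pass the test of the tissue difference. Across the 6298 regions Pearson's r between the ExE and epiblast log2 ratios was 0.47, a description over regions that share libraries.

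**Figure D2:**
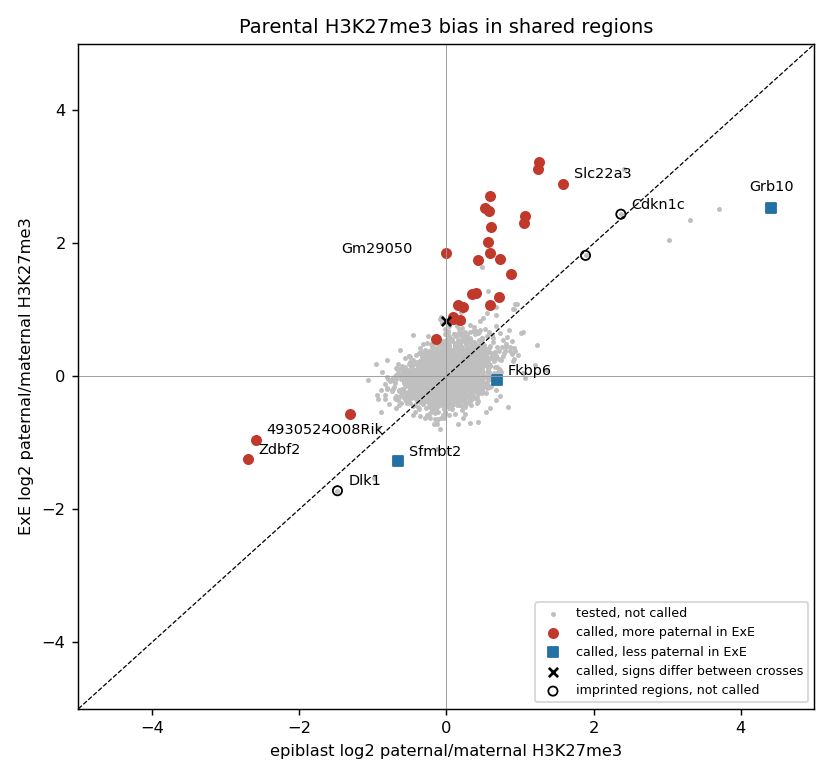
Fitted log2 paternal to maternal H3K27me3 in epiblast (x axis) and ExE (y axis) for the 6298 informative regions, with the dashed line at equal bias. Most called regions (red circles more paternal in ExE, blue squares less) lie above the line on the paternal side, Zdbf2 and 4930524O08Rik above it on the maternal side, Grb10, Fkbp6 and Sfmbt2 below it, and the imprinted Cdkn1c region on it.

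Chromosome 17 around Airn held most of the differences: 20 of the 31 regions lay on this chromosome, which had 275 of the 6298 tested, and 18 of them formed 3 runs of called regions no more than 1 Mb apart. The first run reached over 2.48 Mb (chr17:3309501-5789000) and held Tiam2, Arid1b, Gm29050 and Zdhhc14. The second, over 5.76 Mb (chr17:7135001-12895000), held 11 called regions from Rps6ka2 to Mas1. The third, over 1.33 Mb (chr17:14061001-15396000), held 3, among them Dact2 with Smoc2 and Dll1. Of the 24 informative regions inside the runs, these 18 were more paternal in ExE by construction, since the runs were built from them. The 5 uncalled regions of the second run had a median difference of 0.71, with 1 of opposite sign (Igf2r, -0.15). Another of these 5 passed when each library was a block (difference 0.38, edgeR adjusted p = 0.0210). The 1 uncalled region of the third run had a difference of -0.11.

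Summed over the second run, the paternal share was 83.8% and 83.1% in the B6/CAST ExE libraries and 86.5% and 83.8% in the CAST/B6 ExE libraries. In epiblast it was 69.2% and 63.0% in B6/CAST and 61.9% and 62.3% in CAST/B6. Every ExE library lay above every epiblast library, and the epiblast shares were themselves above the paternal share over all regions. The bias passed in 15 of the 16 regions of that run in ExE and in 9 in epiblast. In the first run the shares were 74.2 to 78.8% in ExE and 53.6 to 55.7% in epiblast, and in the last run 75.2 to 76.8% and 48.9 to 59.4%, again with no overlap. The runs were built from regions called for this difference in the same libraries. The lack of overlap therefore followed from that choice and is a description.

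Regions far from Airn had a large ExE bias. The region of 1700010I14Rik (chr17:8719501-9347000) had paternal shares of 82.6 to 85.9% in ExE and 53.2 to 64.6% in epiblast, on 35352 reads over 627.5 kb and 2847 reads over 61.0 kb, a difference of 1.90 ± 0.12 (SE; edgeR adjusted p = 1.87e-12). At Arid1b (chr17:4348501-5146000), a subunit gene of the BAF chromatin remodelling complex whose region centre lay at -7.994 Mb from the Airn start site, the shares were 80.1 to 85.4% and 53.2 to 64.2%. The difference was 1.63 ± 0.17 (SE) on 31713 and 618 reads, over 797.5 kb in ExE and 24.5 kb in epiblast. At the long non-coding Gm29050 (chr17:5191001-5410000) the ExE libraries had 79.9%, 77.4%, 77.2% and 77.2% paternal reads and the epiblast libraries 49.5%, 44.9%, 50.7% and 49.5%. The epiblast log2 ratio there was 0.00 ± 0.15 (SE) and the difference 1.86 ± 0.17, with 219.0 and 16.5 kb covered. The region of Rps6ka2, a ribosomal S6 kinase gene, with Tcp10a differed by 2.01 ± 0.22 (SE), on only 322 epiblast reads over 13.5 kb, against 213.0 kb in ExE.

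Other called regions lay in the same runs. The region of T (brachyury, a mesoderm transcription factor) and the phosphodiesterase gene Pde10a (chr17:8337501-8692500) was covered over 355.0 kb in ExE and 274.5 kb in epiblast, so similar stretches were compared. The shares were 75.9 to 79.7% and 56.6 to 63.0%, and the difference was 1.27 ± 0.10 (SE; edgeR adjusted p = 2.60e-10). Dact2 and Smoc2, a regulator of developmental signalling and a matrix protein, differed by 1.46 ± 0.14, and Dll1, a Notch ligand, by 0.78 ± 0.13 (SE).

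Beside Airn itself both tissues were biased. The region of Plg (plasminogen) and the organic cation transporters Slc22a3 and Slc22a2 (chr17:12372501-12721500), which holds the Slc22a3 promoter printed above, had paternal shares of 86.5 to 89.8% in ExE and 70.1 to 77.1% in epiblast. The log2 ratios were 2.90 and 1.58, and the difference was 1.32 ± 0.12 (SE; edgeR adjusted p = 1.08e-08). On the other side, the region of Mas1 differed by 1.26 ± 0.12, from 1.05 in epiblast to 2.31 in ExE. The region at Igf2r between them had only 247 and 234 reads and a difference of -0.15 ± 0.31 (SE), which was not called. Of the 21 genes on the list of the Airn cluster, 15 lay within 10000 bp of an informative shared region. Taking the best-covered region for each gene gave 8 different regions, all 8 called as more paternal in ExE (0.460% over all regions), with a median difference of 1.55 against -0.002 over all regions.

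**Figure D3:**
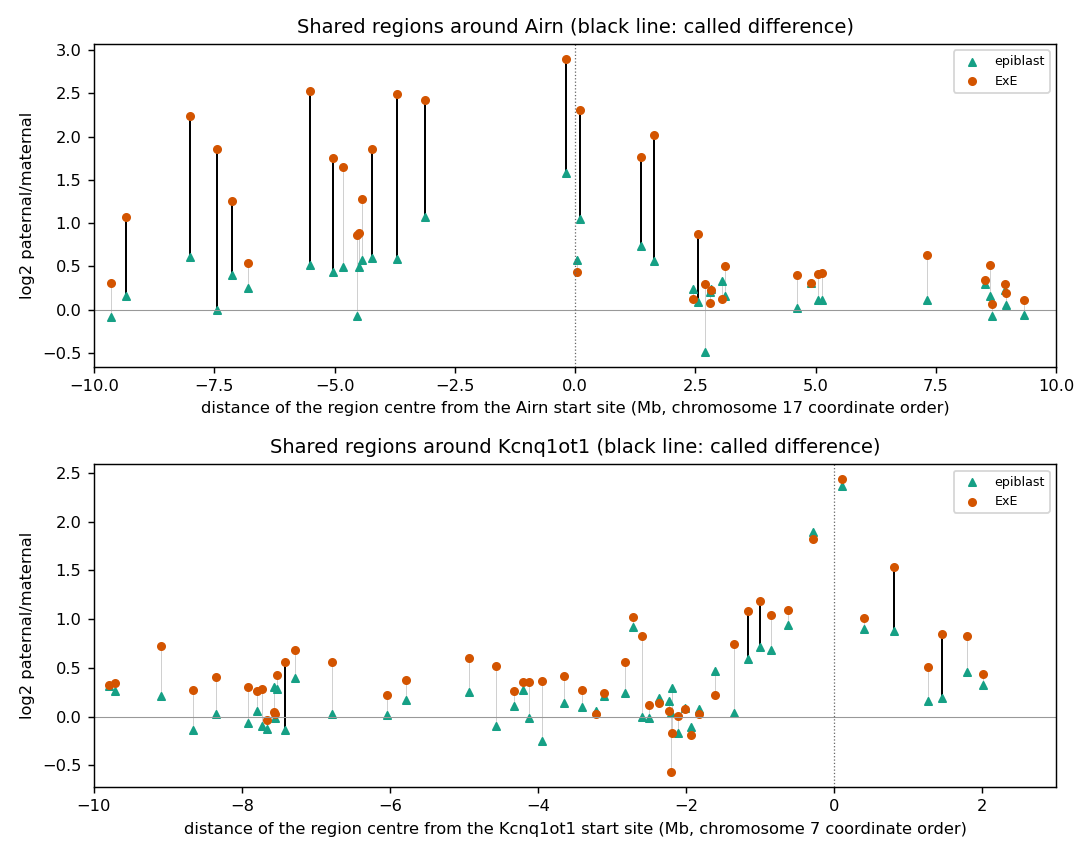
Fitted log2 paternal to maternal H3K27me3 in ExE (orange circles) and epiblast (green triangles) for informative shared regions (4 called regions are left out), by the distance of its centre from the Airn start site (top) and the Kcnq1ot1 start site (bottom), in Mb; a black line joins the tissues where the difference was called. Around Airn called regions, with ExE above epiblast, reach out to Tiam2 at -9.342 Mb (Igf2r, at the start site, is not called), while next to Kcnq1ot1 both tissues reach the same height, as at Cdkn1c with 2.44 and 2.37.

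The Kcnq1ot1 cluster on chromosome 7 gave a different picture. At its core no tissue difference was called although the bias was strong. The region of Cdkn1c, a cell cycle inhibitor, with Slc22a18 and Phlda2 had paternal shares of 83.5%, 81.5%, 86.8% and 83.9% in ExE and 81.9%, 80.5%, 85.6% and 85.1% in epiblast. The groups overlapped, and the difference was 0.07 with a 95% interval of -0.17 to 0.30. The region from Th to Tssc4 (which includes Ascl2, a trophoblast transcription factor) had log2 ratios of 1.82 and 1.89 and a difference of -0.07 (-0.24 to 0.10). At Igf2 with Ins2 the difference was 0.16 (-0.04 to 0.35) and at Osbpl5 with the Tnfrsf genes 0.11 (-0.09 to 0.31). These 4 regions held 11263 to 34939 ExE and 4495 to 17013 epiblast reads.

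Some regions farther out on chromosome 7 were called and others between or beside them were not. Shank2, a synaptic scaffold gene 0.81 Mb from the Kcnq1ot1 start site, had shares of 72.8 to 75.1% in ExE and 62.6 to 66.3% in epiblast, and a difference of 0.66 ± 0.09 (SE; edgeR adjusted p = 2.80e-05). The region of the chloride channel gene Ano1 with the growth factor genes Fgf3, Fgf4 and Fgf15, at 1.452 Mb, had 62.2 to 65.4% and 49.3 to 54.3%, and a difference of 0.66 ± 0.11 (SE). On the other side of the cluster, Dusp8 with Krtap5-2 differed by 0.49 ± 0.11 and Ifitm10 with the other Krtap5 genes by 0.48 ± 0.10 (SE), and each of these 2 calls was lost in 7 of 19 alternative settings with the direction kept. All 4 had the same sign in both crosses, and Shank2 passed in each cross alone. The uncalled regions of Tollip with Brsk2 (at -1.358 Mb), Syt8 with Lsp1 (-0.859 Mb), Faddos (1.269 Mb) and Ccnd1 (1.792 Mb) had differences of 0.71, 0.36, 0.35 and 0.36. Tollip with Brsk2 passed when each library was a block (difference 0.72, edgeR adjusted p = 0.0309). Of the 23 genes on the list of this cluster and H19-Igf2, 22 lay near an informative region, which gave 5 different regions, 1 called (Ano1).

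Away from these clusters, the maternal copy carried more H3K27me3 at Zdbf2 (chr1:63219001-63284000). Its paternal share was 26.6%, 25.9%, 31.3% and 32.8% in the ExE libraries and 15.6%, 13.2%, 12.1% and 11.4% in the epiblast libraries. All 8 libraries were maternal, the epiblast more so, and the difference was 1.45 ± 0.14 (SE; edgeR adjusted p = 1.38e-08), on 3922 and 3813 reads over 65.0 and 39.5 kb. At 4930524O08Rik with 1700017I07Rik (chr9:89779501-89895500) the shares were 31.8 to 34.3% in ExE and 10.5 to 18.6% in epiblast, and the difference was 1.64 ± 0.13 (SE; edgeR adjusted p = 8.31e-10). Directly beside it lay the region of the listed imprinted gene Rasgrf1 (chr9:89896001-89947500), also maternal in both tissues (log2 -0.37 in ExE and -0.55 in epiblast). The difference at Rasgrf1, 0.17 ± 0.13 (SE), was not called. Another maternal region (chr2:174349001-174415000) held no gene start, had Nelfcd as its nearest gene and lay within 10000 bp of Gnas, an imprinted G protein gene. It had 32.1 to 46.5% paternal reads in ExE and 27.2 to 29.3% in epiblast, and a difference of 0.75 ± 0.13 (SE).

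Grb10 (chr11:12010501-12062000) was the strongest of the 3 regions with the opposite sign. Its paternal share was 75.4% and 79.0% in B6/CAST ExE and 92.5% and 87.3% in CAST/B6 ExE, and 93.0%, 90.6%, 97.5% and 97.1% in epiblast. Within each cross both epiblast libraries lay above both ExE libraries, while over both crosses the ranges overlapped. The log2 ratios were 2.54 in ExE and 4.41 in epiblast, and the difference was -1.87 ± 0.22 (SE; edgeR adjusted p = 8.33e-07). The epiblast value rested on 15 to 31 maternal reads per library.

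Sfmbt2 (chr2:10276001-10385000) was maternal in both tissues, with paternal shares of 27.8%, 29.0%, 27% and 30.9% in ExE and 37.6%, 38.4%, 37.0% and 39.2% in epiblast. The libraries of each tissue lay close together and the tissues did not overlap, and the difference was -0.62 ± 0.15 (SE; edgeR adjusted p = 0.0461). The covered lengths were 106.5 and 107.5 kb, on 5359 and 5122 reads. This call lay close to the threshold and was lost in 12 of 19 alternative settings, with the direction kept in each. At Fkbp6, an immunophilin gene, with Trim50 (chr5:135336001-135368000) the shares were 42.2 to 52.3% in ExE and 52.4 to 67.0% in epiblast, and the difference was -0.75 ± 0.16 (SE; edgeR adjusted p = 0.0149), a call lost in 6 of 18 alternative settings.

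**Figure D4:**
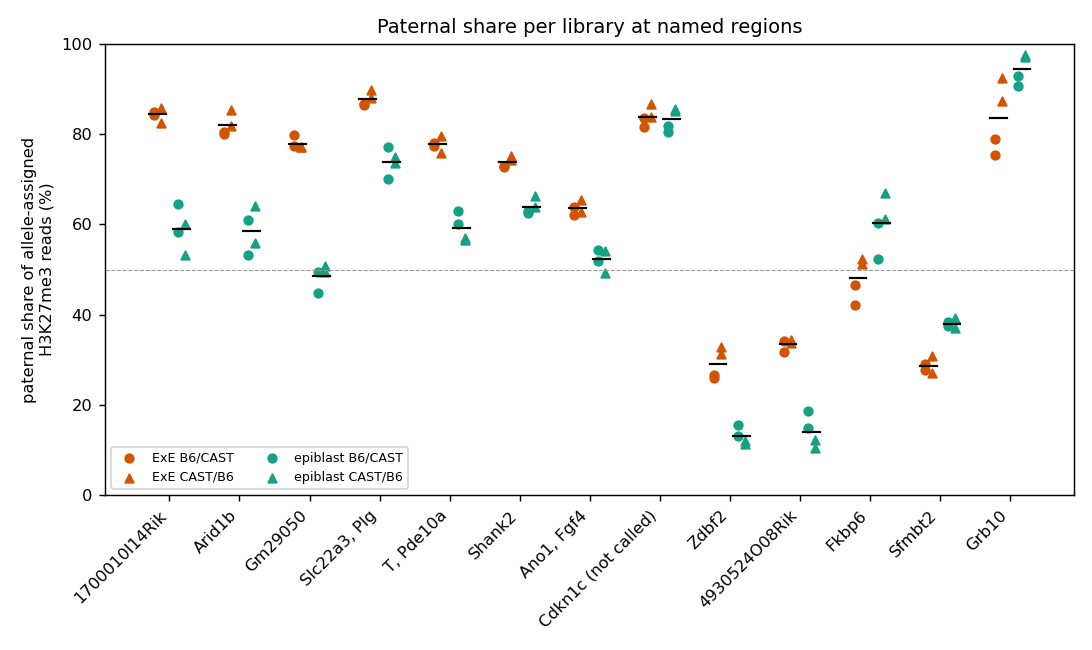
Paternal share of allele-assigned H3K27me3 reads (%) in each wild-type library at 13 shared regions, with ExE in orange and epiblast in green, circles for B6/CAST and triangles for CAST/B6, and a black bar at the mean of 4 libraries. ExE lies above epiblast in the chromosome 17 regions, Shank2, Ano1, Zdbf2 and 4930524O08Rik, below it in Fkbp6 and Sfmbt2, and the tissues overlap at Cdkn1c and Grb10.

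Across all imprinted lists, the clusters on chromosomes 7 and 17 included, 81 of 116 genes on the 5 imprinted lists lay near an informative shared region, which gave 52 different regions, 13 of them called (25%, against 0.508% of all regions) and with a median difference of 0.04, while 18 of the 31 called regions lay near no listed gene. The list of other imprinted genes had 3 of 29 regions called. In the Dlk1-Dio3 domain none of 5 regions passed, while Dio3 passed when each library was a block (difference -0.28, edgeR adjusted p = 0.0181), as did the neighbouring region of Gm34785 (-0.53, adjusted p = 0.0417). Dlk1, a Notch pathway ligand gene, was maternal in both tissues (log2 -1.72 in ExE and -1.48 in epiblast, difference -0.24, 95% interval -0.47 to -0.01). Rtl1, a retrotransposon-derived gene, had 2.35 and 3.30 on 319 and 103 reads (interval of the difference -1.96 to 0.04). Of the genes listed for a bias kept in matDKO, 5 of 8 had a region and 1, Sfmbt2, was called. That list was drawn from the study's own results on these libraries, so its count is not independent evidence. Gab1 had a difference of 0.49 (0.04 to 0.93) on 699 and 366 reads, Smoc1 -0.18 (-0.43 to 0.06) and Zfp64 -0.25 (-0.49 to -0.01), none of which passed. The region of the paternally expressed genes Ndn, Magel2, Mkrn3 and Peg12 had 50.5 to 58.2% paternal reads in ExE and 57.0 to 71.4% in epiblast, with a difference of -0.67 ± 0.18 (SE; edgeR adjusted p = 0.171), and it passed when each library was a block (adjusted p = 1.95e-10).

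The counts for gene groups outside imprinting are too small to be set apart from the 0.508% called over all regions. Of the 39 Hox genes all lay near 4 shared regions, none called, with a median difference of -0.03, and the Hoxb region passed with the library block (0.21, edgeR adjusted p = 0.00573). Of 32 developmental regulators, in 31 regions, none was called either, and their median was -0.03. Of 14 trophoblast regulators 8 had a region and none was called. Of 12 epiblast and pluripotency genes 10 had a region, and 1, Fgf4, was called through the region it shares with Ano1.

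The matDKO/CAST libraries were not used for the calls. For the 28 same-sign regions more paternal in ExE, chosen on the wild type, the median difference was 0.13 in matDKO/CAST, against 1.08 for B6/CAST and 1.44 for CAST/B6, which is a description. The median ExE log2 ratio was 1.64 in the wild type and 0.22 in matDKO/CAST, and that of epiblast was 0.54 and 0.06. None of the 31 regions passed the tissue test in matDKO/CAST (edgeR adjusted p; 4 at an unadjusted p below 0.05, which were 4930524O08Rik, Gm29050, Sfmbt2, and Rps6ka2 with Tcp10a), where 2 of 6298 regions passed (0.0318%; 6.13% at an unadjusted p below 0.05) and 1 of the 2 epiblast libraries held only 0.260 M reads. In matDKO/CAST the paternal copy is always CAST, so parent and strain are not separated there. The ratio of both copies passed in 10 of the 31 in matDKO/CAST ExE and in 2 in epiblast, against 4.22% and 2.10% of all regions.

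A direct test of the change from B6/CAST to matDKO/CAST, which shares the B6/CAST libraries with the calls, passed in 4 of 6298 regions (0.0635%). At an unadjusted p below 0.05 it passed in 20 of the 31, against 3.64% of all regions. All 4 were among the 31, with 1700010I14Rik, Arid1b and Grb10 among them. The tissue difference of 1700010I14Rik in matDKO/CAST was 0.17 ± 0.19 (SE), and the change from B6/CAST was -1.57 (edgeR adjusted p = 0.00123), with paternal shares of 51.0% and 53.4% in ExE and 49.6% and 47.9% in epiblast. Its ExE log2 ratio in matDKO/CAST, scaled by library, was 0.38 and passed the test (edgeR adjusted p = 0.0318), and that in epiblast was 0.21 (adjusted p = 0.653). Grb10 had 48.9% and 39.4% in ExE and 44.1% and 44.4% in epiblast, a tissue difference of 0.00, and the change from B6/CAST was 1.78 ± 0.38 (SE; edgeR adjusted p = 0.0416). Over the second run on chromosome 17 the paternal shares of matDKO/CAST were 50.1% and 51.3% in ExE and 48.9% and 49.8% in epiblast. These lay above the paternal shares over all shared regions in the same libraries, which were 44.4% and 46.9% in ExE and 46.0% and 44.3% in epiblast.

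Of the 4 maternally marked regions, 3 had more maternal than paternal reads in every matDKO/CAST library. In the region beside Gnas the paternal shares were 47.6% and 45.6% in ExE and 45.8% and 52.3% in epiblast, with fitted log2 ratios of 0.06 and 0.12. At 4930524O08Rik the paternal shares were 28.4% and 30.8% in ExE and 19% and 18.3% in epiblast, and the tissue difference was 0.84 (adjusted p = 0.159). At Sfmbt2 they were 23.6% and 29.9% against 32.6% and 34.6%, a difference of -0.48 (adjusted p = 0.737, both by edgeR). At Zdbf2 they were 29.9% and 39.3% in ExE, and 41.6% and 34.9% on 197 and 43 reads in epiblast, with a tissue difference of -0.39, where the wild type had 1.45. The change from B6/CAST at Zdbf2 was -1.46 and did not pass (edgeR adjusted p = 0.0783).

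**Figure D5:**
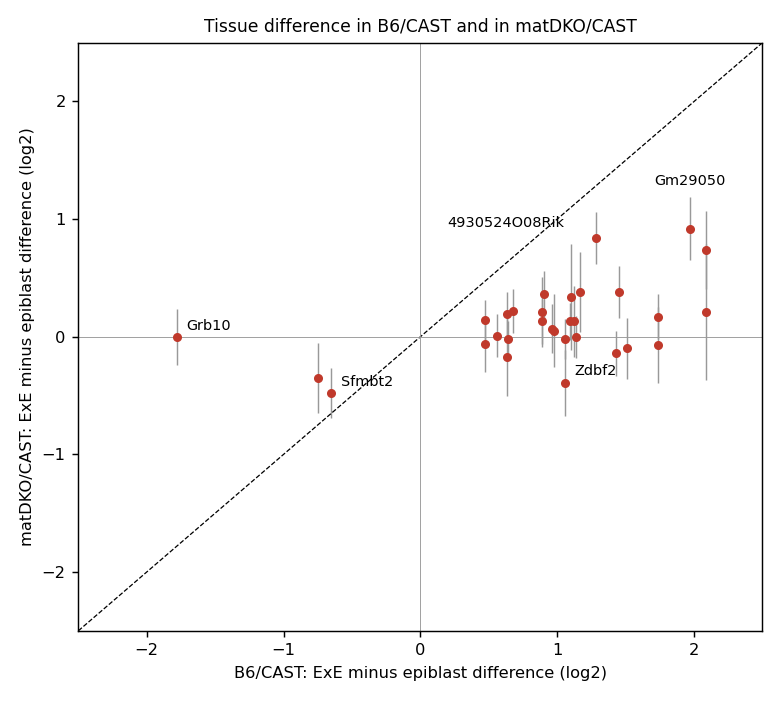
Tissue difference in log2 paternal to maternal H3K27me3 (ExE minus epiblast) in B6/CAST (x axis) and matDKO/CAST (y axis, bars are SE) for the 31 called regions with the same sign in both crosses; the dashed line marks equal values. Most points lie near 0 on the y axis, among them Grb10 at 0.00, while Gm29050 (0.92), 4930524O08Rik (0.84), Rps6ka2 (0.74) and Sfmbt2 (-0.48) lie farther from it.

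Other marks were read over the same regions as a description. In ExE, H3K4me3, a mark of active promoters, had at least 20 reads in each cross in 30 of the 31 regions, and in 28 it was higher in both crosses on the parental copy with less H3K27me3. Over all informative regions this held for 871 of 5332 (16.3%). In epiblast it held for 13 of 29, against 14.9% over all regions. At Sfmbt2 the paternal share of H3K4me3 was 77.1 to 80.4% over the ExE libraries and 49.1 to 64.2% over the epiblast libraries. At Grb10 it was 20.5 to 44.6% over the ExE libraries (197 reads), and in epiblast 18.2% of 165 reads in B6/CAST and 12.1% of 107 reads in CAST/B6. H3K36me3, a mark of transcribed gene bodies, was opposite to H3K27me3 in both crosses in 9 of 16 regions in ExE and 6 of 19 in epiblast (19.1% and 18.1% over all regions). In epiblast it lay on the same parent in 5 (16.1% over all regions) and differed between crosses in 8. It was maternal at Grb10 in both tissues, with paternal shares of 19.4 to 24.5% in ExE and 14.4 to 27.4% in epiblast.

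The level of H3K27me3 also moved with the tissue. Over the 32 called regions the mean total H3K27me3 was higher in ExE in 26, with every ExE library above every epiblast library in 22, and the median ratio of ExE to epiblast was 1.70. Over all 6298 regions the ExE mean was higher in 66.9%, every ExE library was above every epiblast library in 32.7%, and the median ratio was 1.18. At Grb10 and Sfmbt2 the epiblast was higher in every library (2.27 to 3.59 against 1.68 to 2.16 RPKM, and 1.54 to 2.12 against 1.21 to 1.35 RPKM). The part of the level in the differences of the bias was not tested. The share of regions called rose with epiblast depth, from 0.0632% of regions with 46 to 193 epiblast reads (median SE 0.31) to 1.21% of those with 804 to 41437 (median SE 0.13). Of the 31 regions 9 had a shared length of at least 50% of the covered length in both tissues, and when only such regions were tested, 8 of 2910 passed.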

How the data were processed

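Ultra low-input ChIP-seq reads had been trimmed with Trim Galore 0.4.4 and aligned with Bowtie2 2.3.2 to GRCm38 (versions from the submitters' processing notes), in a copy with the strain variants masked, and reads covering a variant were assigned to a parent. The deposited allelic tables hold raw read counts per peak and allele, and the deposited window table holds RPKM of all reads in 1 kb windows. For matDKO/CAST the authors added reads assigned to 129 to the maternal count. Overlapping peaks were joined across the tissues and their counts summed. Regions were tested in edgeR 4.0.16 by quasi-likelihood, on 16 allele columns with 1 mean per cross, tissue and parent, TMM factors and Benjamini-Hochberg adjustment over the 6298 informative regions, two-sided, at 0.05. The SE is the log2 value divided by the root of F. A fit of 24 columns added matDKO/CAST. DESeq2 1.42.0, other filters, overlaps, thinning, blocks and left-out libraries were alternatives. The script was tested on simulated data. Intervals are 95%, and shares carry counting error from PCR reads without molecular identifiers.

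The members and gene lists were chosen with earlier results of these data known. Regions were named by the GENCODE vM21 genes whose start sites they hold, else by gene bodies, else by the nearest gene. The rule named the 10 regions with the largest difference in each direction with at least 100 reads per tissue, and the best-covered region within 10000 bp of each listed imprinted gene. Tiam2, Zdhhc14, Dll1, Shank2, Dusp8, Ifitm10, 6330420H09Rik, Rcan2, Enpp4, Tollip, Syt8, Faddos, Ccnd1, Gm34785, Runx2os1, Dhrs9, Zfp385b and the Olfr539 region were named after their values were seen. Replicate numbers were not used to pair the tissues in the main test. The deviations of replicate 1 from replicate 2 correlated between ExE and epiblast with r = 0.002 in B6/CAST and 0.018 in CAST/B6. These correlations cannot show whether pools of the same number shared embryos. Paternal and maternal columns of 1 library share their sample. The main test had no block for this, and the library served as a block in an alternative fit. Deposited peak lists were not used here. Some called regions are counted but not reported here by name.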

Additional observations from a re-analysis of the deposited data

Results flagged for a closer look

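The tissue by parent test, in which the parental contrast differs between ExE and epiblast, passed in 32 regions. Among the largest paternal differences were 2.01 at Rps6ka2 and Tcp10a, 1.90 at 1700010I14Rik, 1.86 at Gm29050, 1.64 at 4930524O08Rik, 1.63 at Arid1b, 1.46 at Dact2 and Smoc2, and 1.45 at Zdbf2. The maternal differences were -1.87 at Grb10, -0.75 at Fkbp6 and Trim50, and -0.62 at Sfmbt2. The tissue difference also changed between B6/CAST and matDKO/CAST at 4 regions, among them Grb10 by 1.78, Arid1b by -1.61 and 1700010I14Rik by -1.57. Groups of 2 libraries were too small for a search for outlying libraries.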

How the results depend on the processing

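Of the 31 regions, 21 kept their call in every setting in which they could be tested, no direction reversed, and 65 of 564 combinations of region and setting lost the call. The 32 calls became 8 (7 paternal, 1 maternal) where at least 50% of both lengths had to be shared, since 2910 regions were tested; 47 (9 maternal) with each library as a replicate block; 51 (9 maternal) with library and number as a replicate block; 23 (1 maternal) at an adjusted p of 0.01; and 23 to 58 without 1 library (22 to 52 paternal, 1 to 6 maternal). The 17 calls in each cross became 5 with the stricter overlap and 10 to 22 without 1 library.

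In ExE the 315 biased regions (222 paternal, 93 maternal) became 168 (128, 40) with DESeq2, 47 (33, 14) with the stricter overlap, 125 (102, 23) after thinning, 165 (133, 32) at an adjusted p of 0.01, 870 (482, 388) with the library block and 102 to 661 (82 to 397, 18 to 265) without 1 library, and library totals gave 157 maternal. In epiblast the 68 (48, 20) became 27 (21, 6) with the stricter overlap, 44 (11 maternal) at an adjusted p of 0.01, 172 (89, 83) with the block and 33 to 174 (25 to 65, 8 to 109) without 1 library. The 98 strain calls became 25, 60 after thinning, 44 at an adjusted p of 0.01, 379 with the block and 36 to 216 without 1 library. The causes of these changes, beyond fewer regions or libraries, were not tested. Both blocks kept all 32 calls. Epiblast depth was the lower of the tissues.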

Other observations

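At Rcan2 and Enpp4, on chromosome 17 beyond the runs around Airn and named after their values were seen, ExE was more paternal than epiblast by 0.81 ± 0.17 and 0.80 ± 0.19 (SE; log2; edgeR adjusted p = 0.0110 and 0.0435), with paternal shares of 64.9 to 68.9% against 40.8 to 61.6%, and 60.5 to 67.8% against 39.2 to 62.1%. At 6330420H09Rik on chromosome 7, also named after its value was seen, the shares were 57.0 to 60.4% in ExE and 42.3 to 56.4% in epiblast, with a difference of 0.70 ± 0.17 (SE; edgeR adjusted p = 0.0450). The epiblast libraries spread more widely than the ExE libraries at all 3. The call was lost in 5 of 18 alternative settings at Rcan2, 10 of 18 at Enpp4 and 11 of 18 at 6330420H09Rik.

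With each library as a block, 15 regions passed that did not pass without it, among them Hoxb13 to Hoxb6 with a difference of 0.21, Dio3 with -0.28 and Runx2os1 with 0.71. The 2 regions that passed the tissue test in matDKO/CAST, Dhrs9 (1.44) and Zfp385b (-3.44), had opposite signs in the wild-type crosses (1.68 and -2.03, and -3.08 and 2.55).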
